A study of Sus scrofa with 16 samples.

Results

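The versican and hyaluronan system was followed over 9 genes, chosen by name, in cultured valve interstitial cells of the pig, which are the resident fibroblasts of aortic valve leaflets. They were the large aggregating proteoglycans VCAN and ACAN, the link proteins HAPLN1 and HAPLN3, the hyaluronan synthases HAS1, HAS2 and HAS3, the hyaluronan receptor CD44 and the hyaluronan-binding protein TNFAIP6. All 9 of 9 were present among the 29552 genes of the count table, and 9 of 9 passed the filter on low counts that left 14530 genes for testing. HAS2 is listed in the table under the pig symbol SHAS2, to which RefSeq gives Has2 as a synonym. The cells came from aortic valve leaflets of male and female pigs aged 5 to 6 months. They were kept for 48 hours in Media 199 with 1% fetal bovine serum, antibiotics (penicillin and streptomycin) and the antifungal amphotericin B. The surface was either tissue culture plastic, where the study takes the cells to be myofibroblasts, or a PEG-norbornene hydrogel of about 5.8 kPa, where it takes them to be quiescent fibroblasts. The 4 groups were male plastic, male gel, female plastic and female gel, with 4 libraries of polyadenylated RNA each, 16 in all, and libraries are named here by sex, surface and replicate number. The replicates are 4 male and 4 female biological ones by the design text, which does not say how many animals each held. No freshly isolated cells were among the 16 libraries, so every value is from culture.

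Hyaluronan is a very long sugar polymer that synthases in the cell membrane extrude directly into the matrix. Versican and aggrecan carry chondroitin sulfate chains and bind hyaluronan through a globular end, and link proteins clamp that bond, so that hydrated aggregates form. In the aortic valve this gel-like matrix fills the spongiosa, the middle layer of the leaflet, while CD44 ties hyaluronan to the cell surface and TSG-6, the product of TNFAIP6, transfers heavy chains of inter-alpha-inhibitor onto it.

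Total counts ran from 16897547 to 27436151 per library. Levels are given as CPM, a gene's count scaled to a common library total with TMM factors, and a change counts as called at an adjusted p under 0.05 in edgeR's quasi-likelihood test. All 5 of 5 myofibroblast markers, among them smooth muscle actin ACTA2, rose on plastic in each sex. The 8 fibroblast markers were present on both surfaces, with sums of 47650 to 54440 CPM on male plastic against 39250 to 45100 on male gel, and 43310 to 51040 on female plastic against 37370 to 44900 on female gel. Of these 8, 3 rose and 2 fell on plastic in male cells and 1 rose and 2 fell in female cells, and the proteoglycans DCN (-1.33 and -1.41) and LUM (-1.62 and -1.42) were the ones that fell. The 12 endothelial markers, none of them at 0 throughout, summed to 198 to 338 CPM in male plastic, 156 to 273 in male gel, 212 to 580 in female plastic and 179 to 287 in female gel. ERG had the largest mean of the 12 in each of these groups, at 148, 110, 182 and 110 CPM. On plastic 1 of the 12 rose in male cells (ROBO4) and 2 in female cells (ROBO4 and ERG), and 0 fell. ROBO4 had at most 6 counts in any gel library. The 8 leukocyte markers summed to 5.99 to 38.2 CPM over the 16 libraries, and their T cell marker CD3E was at 0 in all of them. The 7 cardiac muscle markers summed to 12.8 to 97.1 CPM on male plastic against 1.35 to 7.34 on male gel, and to 4.66 to 68.6 on female plastic against 1.99 to 5.06 on female gel, with TNNT2 and NPPA at 0 in every library. ACTC1, the actin of heart muscle, made up most of that sum on plastic, with means of 56.6 CPM in male and 30.7 in female cells. On gel it averaged 2.58 and 1.80 CPM. TNNI3, the other marker of the list that was tested, was not called (0.12 in male and -0.11 in female cells). It averaged 1.31 CPM on male plastic and 1.20 on male gel, and 1.34 on female plastic and 1.45 on female gel. The 9 cartilage markers, which leave out the members, summed to 231 to 396 CPM on male plastic against 153 to 180 on male gel, and to 69.0 to 503 on female plastic against 105 to 139 on female gel. On plastic the largest mean of the list was that of the collagen gene COL11A1, 301 CPM in male and 206 in female cells. Its means on gel were 67.7 and 28.9 CPM. On gel the largest mean was that of SOX9, the transcription factor of cartilage, 87.7 CPM in male and 81.8 in female cells. SOX9 fell on plastic in each sex (-1.56 and -1.33). The median of the 5 tested cartilage markers was -0.11 in male and -0.38 in female cells. The part of these markers in the results was not tested. In bulk RNA, fewer cells of a type and less RNA per cell cannot be told apart. Gene counts also do not separate the splice forms for which VCAN and CD44 are known. No transcript lengths were used, so an order of genes by CPM or counts, as for the markers above, does not rank their transcript abundance.

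The first question was how plastic, the myofibroblast surface of the study, changed this matrix system relative to gel. Of the 9 members, 4 fell and 0 rose on plastic in male cells, where 12.9% of all tested genes were called lower and 12.9% higher. In female cells 5 of the 9 fell and 0 rose, where 11.3% of all tested genes were called lower and 12.7% higher. Calls in either direction made up 25.7% of all tested genes in male and 23.9% in female cells. VCAN, HAPLN1, HAS3 and TNFAIP6 fell in each sex, and HAPLN3 was called in female cells and not in male cells. Every called member also had plastic values below all gel values of the same sex, which held for 14% of all tested genes in each sex. The median log2 change of the members was -0.53 in male and -0.56 in female cells, against -0.03 and -0.04 over all tested genes.

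**Figure D1:**
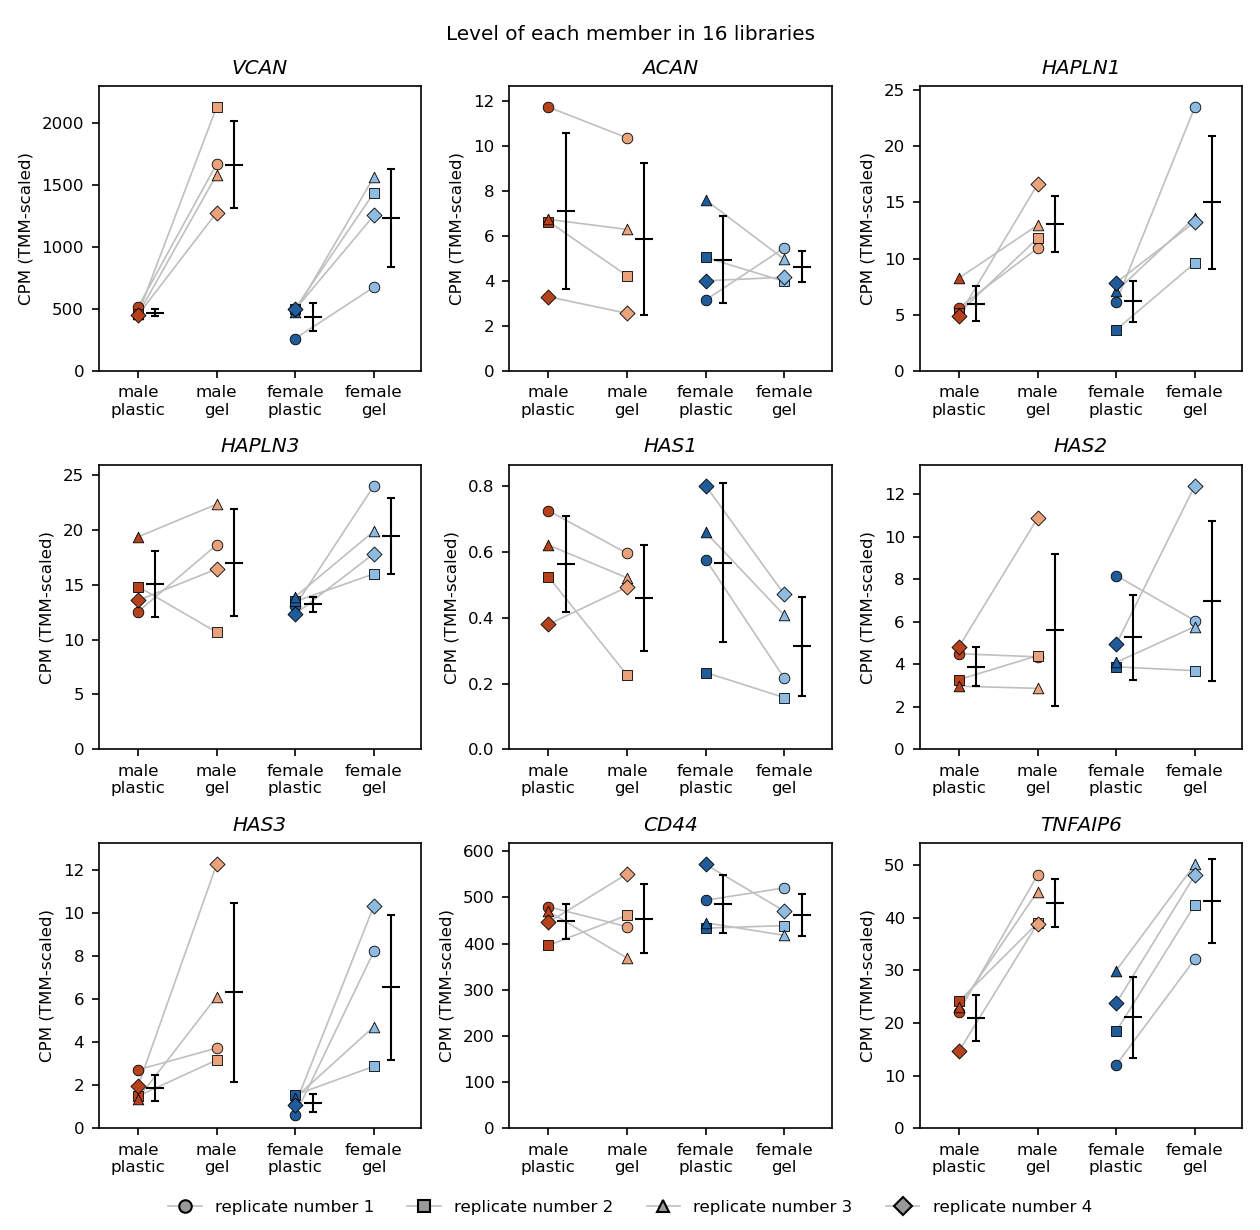
Level of the 9 members in each of the 16 libraries, in TMM-scaled CPM on linear axes from 0. Grey lines join libraries of the same sex and replicate number, and the bars beside the points give the mean ± SD (n = 4). VCAN, HAPLN1, HAS3 and TNFAIP6 lay lower in every plastic library than in every gel library of the same sex, whereas the groups of CD44, HAS1, HAS2 and ACAN overlapped.

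VCAN encodes versican, the main large proteoglycan of soft connective tissue (chromosome 2, 91682177 to 91811674, Sscrofa11.1). Its level was 512, 455, 454 and 449 CPM in male plastic 1 to 4, against 1666, 2125, 1580 and 1275 CPM in male gel 1 to 4. Every male plastic library thus lay below every male gel library, and the plastic libraries were close to each other. VCAN averaged 467 ± 29.7 CPM on male plastic and 1662 ± 352 CPM on male gel (SD, n = 4 each), a log2 change of -1.83 (SE 0.24, adjusted p = 4.09e-05). That placed plastic at 28.1% of the gel level, with a 95% interval of the log2 change from -2.34 to -1.32.

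In female cells VCAN stood at 259, 501, 477 and 495 CPM in plastic 1 to 4, against 674, 1435, 1562 and 1252 CPM in gel 1 to 4. The surfaces again did not overlap, and female 1 was the lowest of its sex on each of them. The means were 433 ± 116 CPM on female plastic and 1231 ± 392 CPM on female gel (SD, n = 4 each), a log2 change of -1.51 (SE 0.24, adjusted p = 0.00023), or 35.2% of the gel level. Female plastic 1 also had the highest sums of endothelial and leukocyte markers, 580 and 38.2 CPM, and the lowest myofibroblast marker sum on plastic, 15630 CPM. Most of its leukocyte sum was 1 gene, LAPTM5, at 33.7 CPM. The leukocyte markers PTPRC, AIF1 and CD3E were at 0 in every female plastic library. The part of these marker sums in the VCAN level of female plastic 1 was not tested. The change was -1.31 without female plastic 1, -1.71 without female gel 1, and -1.60 (adjusted p = 8.27e-05) without the 3 replicates male 4, female 1 and female 4, whose endothelial sums on plastic were the highest. That last fit keeps female 2 and female 3, whose counts were the most alike of the female replicates on each surface. Between plastic and gel of the same number, VCAN was lower on plastic in 4 of 4 male and 4 of 4 female pairs, by 1.34 to 2.22 on the log2 scale.

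ACAN, the aggrecan gene of cartilage matrix (chromosome 7, 54449830 to 54520606), was detected in all libraries and was not called. Male plastic 1 to 4 had 11.8, 6.65, 6.75 and 3.30 CPM, against 10.4, 4.24, 6.30 and 2.56 CPM in male gel 1 to 4. The replicates differed more than the surfaces, with male 1 highest and male 4 lowest on each. Female plastic 1 to 4 had 3.15, 5.05, 7.61 and 4.01 CPM, against 5.48, 3.98, 4.96 and 4.17 CPM in female gel 1 to 4, and these groups overlapped as well. The log2 change was 0.27 (SE 0.39, adjusted p = 0.668) in male cells, with a 95% interval of -0.57 to 1.10, and 0.09 (SE 0.40, adjusted p = 0.896) in female cells, with an interval of -0.75 to 0.94. By number, ACAN was higher on plastic in 4 of 4 male pairs and in 2 of 4 female pairs, and with the replicate as a block the male change was 0.31 (adjusted p = 0.302). ACAN and HAPLN3 share 817 bases at their ends in the annotation, so reads there cannot be told apart without strand.

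HAPLN1 encodes the link protein of cartilage and heart valve that stabilises the bond of versican to hyaluronan. It lies 45820 bases from VCAN on chromosome 2 (91857495 to 91935485). On male plastic 1 to 4 it had 5.61, 5.16, 8.25 and 4.90 CPM, against 10.9, 11.8, 13.0 and 16.6 CPM on male gel 1 to 4. All 4 plastic values were below all 4 gel values, and the log2 change was -1.13 (SE 0.27, adjusted p = 0.00623), or 45.8% of the gel level. Female plastic 1 to 4 had 6.13, 3.65, 7.08 and 7.85 CPM, against 23.5, 9.61, 13.7 and 13.3 CPM in female gel 1 to 4. Female gel 1, where VCAN was lowest among the gel libraries, was the highest of all 16 libraries for HAPLN1. The female change was -1.28 (SE 0.27, adjusted p = 0.00257), and -0.98 (adjusted p = 0.0105) without female gel 1. It was -1.10 (adjusted p = 0.0516) without male 4, female 1 and female 4, a fit that leaves 2 female replicates a surface. LOC102165705, which overlaps 33021 bases of the locus, had at most 14 counts in any library.

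HAPLN3, a link protein of wider tissue distribution (chromosome 7, 54519790 to 54537429), had a small change. Male plastic 1 to 4 gave 12.5, 14.8, 19.4 and 13.6 CPM, against 18.6, 10.7, 22.3 and 16.4 CPM in male gel 1 to 4, with overlap. The male log2 change was -0.18 (SE 0.19, adjusted p = 0.537), with a 95% interval of -0.59 to 0.23. Female plastic 1 to 4 gave 13.1, 13.5, 13.9 and 12.3 CPM, against 24.0, 16.0, 19.9 and 17.8 CPM in female gel 1 to 4. These did not overlap, and the female change was -0.56 (SE 0.19, adjusted p = 0.0446). That call sat at the edge of the threshold: it was kept in 12 of 26 alternatives. It was lost without any 1 of female plastic 1, 2, 3 or 4, female gel 1, 3 or 4, male plastic 2 or 4, or male gel 1 or 4, at adjusted p of up to 0.138 (log2 change -0.44, without female gel 1). The difference between the female and male changes, -0.38 (SE 0.27, adjusted p = 0.768), was not called.

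Of the hyaluronan synthases, the membrane enzymes that polymerise UDP-glucuronic acid and UDP-N-acetylglucosamine, HAS3 fell and HAS1 and HAS2 were not called. HAS3 (chromosome 6, 17844974 to 17870331) makes shorter hyaluronan chains than its relatives in cell culture. Male plastic 1 to 4 had 2.71, 1.49, 1.38 and 1.94 CPM, against 3.72, 3.16, 6.11 and 12.3 CPM in male gel 1 to 4. Plastic was lower without overlap, but the gel replicates spread widely, with male gel 4 far above the other male libraries. The log2 change was -1.75 (SE 0.45, adjusted p = 0.00952), or 29.7% of the gel level, and -1.21 (adjusted p = 0.043) without male gel 4.

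Female plastic 1 to 4 had 0.622, 1.54, 1.41 and 1.10 CPM of HAS3, against 8.22, 2.87, 4.72 and 10.3 CPM in female gel 1 to 4. All 4 plastic values were again lower, and female gel 4 and 1 were the high ones. The female change was -2.48 (SE 0.47, adjusted p = 0.00102), or 17.9% of the gel level, the largest of the 9 members in either sex. Without male 4, female 1 and female 4 it was -1.35 and not called (adjusted p = 0.0719), with 2 female replicates a surface, while the male change in that fit was -1.22 (adjusted p = 0.0322). By number the drop in HAS3 ranged from -0.45 to -2.61 in male and from -0.86 to -3.56 in female pairs, the widest range among the members that fell. TANGO6 overlaps HAS3 by 282 bases and was not called in male (0.04) or female cells (-0.21).

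HAS2 (chromosome 4, 17583154 to 17613524) is the synthase on which heart valve formation depends in mouse embryos. Male plastic 1 to 4 had 4.50, 3.28, 2.97 and 4.82 CPM, against 4.35, 4.41, 2.87 and 10.9 CPM in male gel 1 to 4. Female plastic 1 to 4 had 8.17, 3.88, 4.09 and 4.94 CPM, against 6.06, 3.70, 5.77 and 12.4 CPM in female gel 1 to 4. Apart from male gel 4 and female gel 4, which were also the highest gel libraries of their sex for HAS3, the surfaces overlapped. The log2 change was -0.53 (SE 0.41, adjusted p = 0.371) in male cells and -0.41 (SE 0.40, adjusted p = 0.509) in female cells, with 95% intervals of -1.39 to 0.34 and -1.25 to 0.44. Without male gel 4 the male change was 0.01, and without female gel 4 the female change was 0.02, so its sign rested on those libraries. The uncharacterised LOC106509979 lies within the HAS2 locus over 5691 bases, had 12 to 78 counts, and was not called in either sex.

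HAS1 (chromosome 6, 58303274 to 58313486), the remaining synthase, was close to the detection limit, with 4 to 19 counts per library. Its mean was 0.563 ± 0.147 CPM on male plastic and 0.459 ± 0.162 CPM on male gel, and 0.568 ± 0.241 CPM on female plastic and 0.313 ± 0.150 CPM on female gel (SD, n = 4 each). The groups overlapped, and the log2 changes of 0.26 (SE 0.45, adjusted p = 0.715) in male and 0.85 (SE 0.46, adjusted p = 0.201) in female cells were not called. At this depth the 95% intervals, -0.69 to 1.22 and -0.12 to 1.82, still allowed a rise of more than 2-fold.

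CD44 (chromosome 2, 25788699 to 25884209), the main cell-surface receptor for hyaluronan, was the member with the narrowest interval. Male plastic 1 to 4 had 480, 396, 470 and 446 CPM, against 437, 461, 369 and 551 CPM in male gel 1 to 4. In female cells plastic 1 to 4 had 494, 434, 445 and 572 CPM, against 521, 439, 418 and 470 CPM in gel 1 to 4. The surfaces overlapped in each sex. The log2 change was -0.02 (SE 0.12, adjusted p = 0.927) in male and 0.07 (SE 0.12, adjusted p = 0.714) in female cells, with 95% intervals of -0.28 to 0.24 and -0.19 to 0.34. With library totals and no TMM factors the CD44 change was -0.26 (adjusted p = 0.123) in male and -0.17 (adjusted p = 0.321) in female cells. Its sign thus changed with that scaling in female cells and not in male cells. In that setting the median of all genes moved to -0.27 and -0.28.

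TNFAIP6 (chromosome 15, 862013 to 881352) encodes TSG-6, a secreted hyaluronan-binding protein induced by inflammatory cytokines. Male plastic 1 to 4 had 22.1, 24.1, 23.0 and 14.6 CPM, against 48.1, 39.0, 45.0 and 38.9 CPM in male gel 1 to 4. Female plastic 1 to 4 had 12.04, 18.4, 30.0 and 23.8 CPM, against 32.1, 42.4, 50.1 and 48.1 CPM in female gel 1 to 4. No plastic library reached any gel library of its sex, and female 1 was again the lowest of its sex on each surface. The log2 change was -1.03 (SE 0.23, adjusted p = 0.003) in male cells and -1.04 (SE 0.23, adjusted p = 0.00291) in female cells, at 49.0% and 48.7% of the gel level. Both calls were kept in 26 of 26 alternatives, as were those of VCAN.

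**Figure D2:**
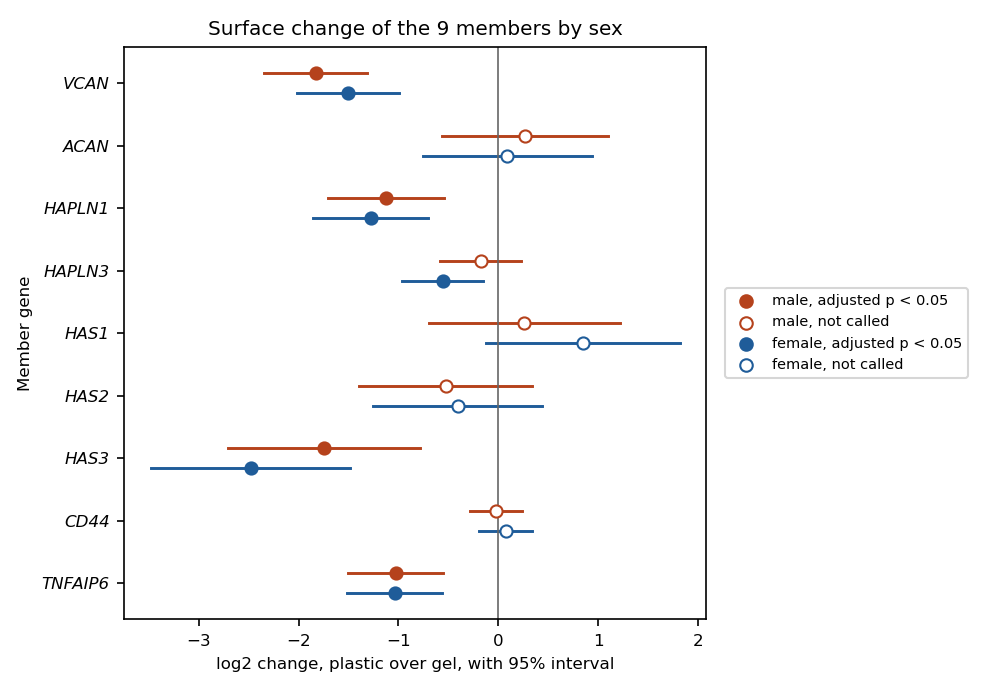
Log2 change of each member on plastic relative to gel, in male and female cells. Points are edgeR estimates, lines are 95% intervals and filled points passed an adjusted p of 0.05. VCAN, HAPLN1, HAS3 and TNFAIP6 lie left of 0 in each sex, from -2.48 to -1.03, while the intervals of ACAN, HAS1, HAS2 and CD44 include 0.

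The study's second question was the sex of the cells. No member differed between female and male cells on gel, where 0.103% of all tested genes were called and the smallest adjusted p among the members was 0.852, nor on plastic, where 0.124% of all tested genes were called and the smallest was 0.98. At an unadjusted p under 0.05 the count was also 0 of 9 on each surface, and neither DESeq2 nor limma-voom called any member. Log2 differences, female over male, ran from -0.56 (HAS1) to 0.32 (HAS2) on gel and from -0.68 (HAS3) to 0.44 (HAS2) on plastic. For VCAN they were -0.43 on gel (SE 0.24, 95% interval -0.93 to 0.06) and -0.11 on plastic (SE 0.24, interval -0.61 to 0.39).

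The surface changes of female and male cells were then set against each other. No member passed, 0 of 9 by edgeR, DESeq2 or limma-voom and 0 at an unadjusted p under 0.05, and 0% of all tested genes passed. The female minus male difference of the log2 changes was 0.32 for VCAN (SE 0.33, 95% interval -0.38 to 1.03) and -0.73 for HAS3 (SE 0.64, interval -2.09 to 0.62). With 4 replicates a group, differences between the sexes that lie within these intervals were not resolved.

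The wider pathway was described with 8 lists of 82 gene symbols, of which 80 matched an entry of the table and 70 were tested. CHPF2 and CEMIP2 matched none, and TMEM2 was tested. In male cells 16 of the 70 rose and 10 fell on plastic, and in female cells 14 rose and 13 fell, against 12.9% higher and 12.9% lower over all tested genes in male cells and 12.7% and 11.3% in female cells. Of the pathway genes named here, ADAMTS9, CHST11, EGFR, GPI, HEXA and UST overlap uncharacterised genes in the annotation, HYAL2 overlaps TUSC2 and PTX3 overlaps VEPH1, and without strand their shared reads cannot be told apart. With library totals and no TMM factors the split was 12 up and 24 down in male and 14 up and 25 down in female cells. That scaling moved all genes: of 14530 tested, 1141 were called higher and 4808 lower in male cells. In female cells 1070 were called higher and 4325 lower, so these list counts are not to be set beside the shares with TMM.

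**Figure D3:**
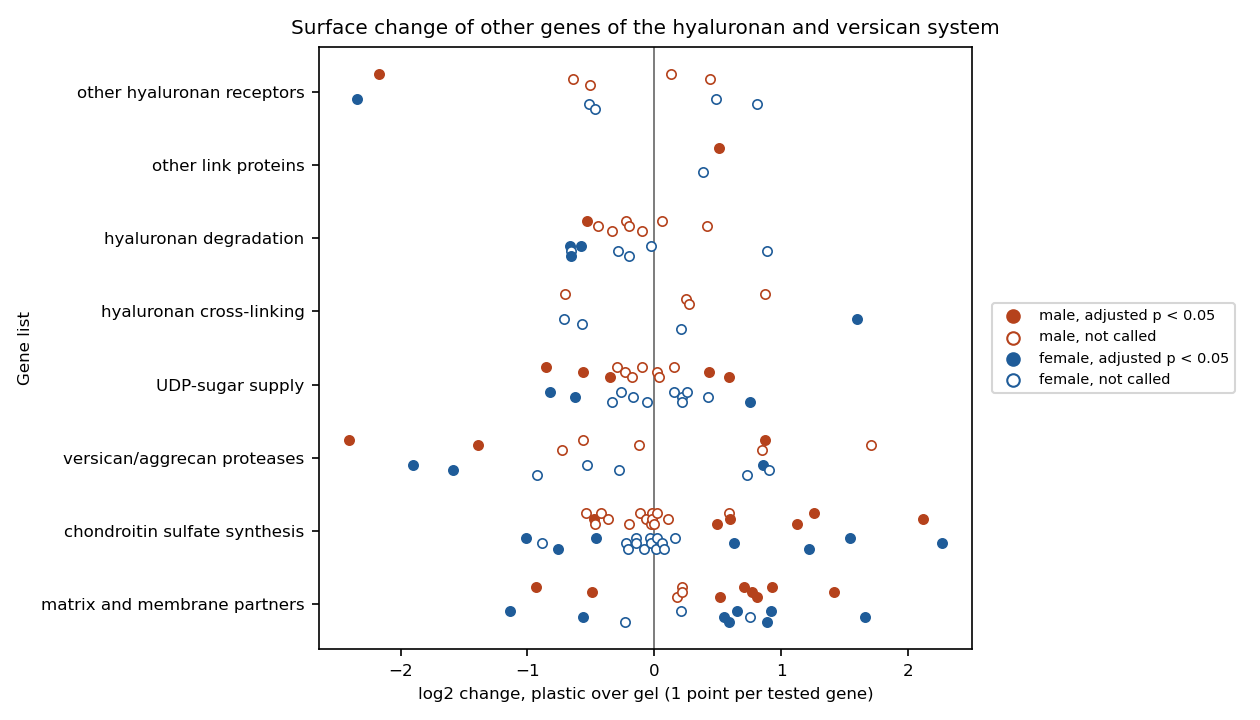
Log2 change on plastic relative to gel of the tested genes in 8 lists of the hyaluronan and versican system, 1 point per gene and sex, with filled points past an adjusted p of 0.05. LYVE1, at 0 counts in several gel libraries, is not drawn. The matrix and membrane partners had 6 called higher and 2 called lower in each sex, and the proteases had 2 lower and 1 higher.

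Of the 8 tested proteases and inhibitors that act on versican and aggrecan, 1 rose and 2 fell in each sex, with a median log2 change of -0.34 in male and -0.40 in female cells. Over all tested genes, 12.9% were called higher and 12.9% lower in male cells, and 12.7% and 11.3% in female cells. The proteases ADAMTS4 and ADAMTS5 fell in each sex. ADAMTS4 averaged 24.7 CPM on male plastic and 65.0 CPM on male gel (log2 change -1.39, adjusted p = 0.00469). In female cells it averaged 25.1 CPM on plastic and 75.4 CPM on gel (-1.58, adjusted p = 0.00192). ADAMTS5 averaged 5.95 CPM on male plastic and 31.7 CPM on male gel (-2.41, adjusted p = 0.00525), and 7.92 CPM on female plastic and 29.6 CPM on female gel (-1.90, adjusted p = 0.02). The female ADAMTS5 call was lost in 5 of 26 alternatives: with no filter, without female plastic 2, female plastic 3 or female gel 4, and without female plastic 4 together with male gel 2. ADAMTS9, another protease of the list, rose in each sex. It averaged 210 CPM on male plastic against 114.5 CPM on male gel, and 213 CPM on female plastic against 117 CPM on female gel (log2 changes 0.88 and 0.86).

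Of the 20 tested chondroitin sulfate genes, 5 rose and 1 fell in male cells and 4 rose and 3 fell in female cells, with medians of -0.02 and -0.03. The medians over all tested genes were -0.03 and -0.04. The shares called were 12.9% higher and 12.9% lower in male cells, and 12.7% and 11.3% in female cells. UST, the uronyl 2-O-sulfotransferase, averaged 166 CPM on male plastic and 76.2 CPM on male gel, and 153 CPM on female plastic and 65.9 CPM on female gel (log2 changes 1.12 and 1.22). CHST11, a chondroitin 4-O-sulfotransferase, rose by 1.26 in male and 1.54 in female cells, and the chain polymerase CHSY1 by 0.60 and 0.63. DSE, the epimerase that turns chondroitin into dermatan sulfate, fell by 0.48 and 0.46. In female cells the dermatan 4-O-sulfotransferase CHST14 and the linker galactosyltransferase B3GALT6 also fell, by 0.76 and 1.01. Their male changes had the same sign, -0.47 and -0.36, and were not called (adjusted p = 0.0564 and 0.209). Of the pathway genes named here, CHST14, B3GALT6, HEXA, HYAL2 and GPI lost their female calls, and GPI and UAP1 their male calls, without male 4, female 1 and female 4.

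Of the 12 enzymes that supply UDP-sugars, 7 in male and 9 in female cells were not called. In male cells 2 rose and 3 fell and in female cells 1 rose and 2 fell, counts near the 12.9% higher and 12.9% lower over all tested genes in male cells and the 12.7% and 11.3% in female cells. GFPT2, which opens the hexosamine pathway, averaged 20.1 CPM on male plastic and 36.3 CPM on male gel, and 17.6 CPM on female plastic and 31.1 CPM on female gel (log2 changes -0.85 and -0.82). The hexokinase HK1 rose by 0.59 and 0.76, and the glucose-6-phosphate isomerase GPI fell by 0.56 and 0.62. The male GPI call was lost in 7 of 26 alternatives: without male plastic 1, 2 or 3 or male gel 1 or 4, with only the groups compared, and without male 4, female 1 and female 4. The female GPI call was lost in 2, without female gel 4 and without those 3 replicates. PGM3, a mutase of the hexosamine pathway, rose by 0.43 in male cells but was not called there with library totals. UAP1, which makes UDP-N-acetylglucosamine, fell in male cells by 0.35, a call kept in 9 of 26 alternatives. The female changes had the same signs, 0.22 for PGM3 and -0.26 for UAP1, and were not called (adjusted p = 0.128 and 0.126).

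Among 8 tested genes of hyaluronan breakdown, 0 rose and 1 fell in male cells, and 0 rose and 3 fell in female cells. Of all tested genes, 12.9% were called higher and 12.9% lower in male cells, and 12.7% and 11.3% in female cells. The lysosomal enzyme GUSB (beta-glucuronidase) fell in each sex, by 0.53 and 0.66, and the hexosaminidase HEXA and the hyaluronidase HYAL2 fell in female cells, by 0.58 and 0.66. In male cells HEXA changed by -0.22 and HYAL2 by -0.44, and neither was called (adjusted p = 0.252 and 0.165). The female HYAL2 call was kept in 15 of 26 alternatives. CEMIP, a secreted protein needed for hyaluronan breakdown by fibroblasts, was variable between replicates: 715 to 975 CPM on male plastic against 222 to 1088 CPM on male gel, and 492 to 1040 CPM on female plastic against 179 to 551 CPM on female gel. Its changes of 0.41 in male and 0.89 in female cells were not called (adjusted p = 0.472 and 0.114); CEMIP lies outside the naming rule and was picked after its values were seen.

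Of 6 other hyaluronan receptors tested, 1 rose and 1 fell in each sex. The shares over all tested genes were 12.9% higher and 12.9% lower in male cells, and 12.7% and 11.3% in female cells. TLR2, an innate immune receptor that hyaluronan fragments can engage, averaged 6.62 CPM on male plastic and 29.7 CPM on male gel, and 4.48 CPM on female plastic and 22.7 CPM on female gel (log2 changes -2.17 and -2.34). LYVE1, the receptor of lymphatic endothelium, was called higher from very few reads, with 15 to 35 counts per library on male plastic against 0 to 2 on male gel and 2 to 18 on female plastic against 0 to 3 on female gel. The list of hyaluronan cross-linking partners had 4 tested genes, PTX3, ITIH2, ITIH4 and ITIH5. ITIH1, ITIH3 and AMBP did not pass the low-count filter. Of the 4, 0 were called in male cells, and 1 was called higher and 0 lower in female cells, beside the shares over all tested genes given above. PTX3, the pentraxin that cross-links hyaluronan with TSG-6, rose in female cells by 1.60 (SE 0.38, adjusted p = 0.00532). It was not called in male cells (0.87, adjusted p = 0.096). HAPLN4, a link protein best known from brain, was the member of its list that passed the low-count filter, and changed by 0.51 in male cells (adjusted p = 0.0349) and 0.39 in female cells (adjusted p = 0.108). The male HAPLN4 call was lost without male plastic 1, 3 or 4 or male gel 1, 2 or 3, and without female plastic 4 together with male gel 2. The gene overlaps TM6SF2. With library totals it was 0.26 (adjusted p = 0.266).

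Partners of versican and CD44 had 6 of 11 up and 2 down in each sex, with a median log2 change of 0.52 in male and 0.59 in female cells. All tested genes had 12.9% higher and 12.9% lower in male cells, and 12.7% and 11.3% in female cells. MSN (moesin), which ties the CD44 tail to actin, averaged 1760 CPM on male plastic and 1075 CPM on male gel, and 1859 CPM on female plastic and 1003 CPM on female gel (log2 changes 0.71 and 0.89). Its relative EZR (ezrin) rose by 0.52 and 0.55 and NF2 (merlin), a related CD44-tail binder, by 0.77 and 0.59. TNC (tenascin-C), a ligand of lecticans, rose by 1.42 and 1.66 and the microfibril protein FBN1, which binds versican, by 0.81 and 0.92. FBLN1 (fibulin-1), another versican ligand, fell to 299 CPM on male plastic against 570 CPM on male gel and to 318 CPM on female plastic against 700 CPM on female gel (log2 changes -0.93 and -1.14), and EGFR fell by 0.49 and 0.57.

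For each member the 3 tested genes with the closest pattern were sought by Pearson's r of log2 CPM over all 16 libraries, which share the surface difference, so that genes with a large surface change rank high together. VCAN was closest to IGF1 (r = 0.97), FZD1 (0.97) and PTGFR (0.97), and TNFAIP6 to ANG (0.96), FAM180A (0.95) and STX11 (0.94). HAS3 was closest to SLC23A2 (0.93), RDH10 (0.93) and ID2 (0.92), HAPLN1 to RLN3 (0.93), MDFIC (0.92) and MYLIP (0.92), and HAPLN3 to CLEC11A (0.94), TMBIM1 (0.89) and SEMA3F (0.89). Members without a surface call in either sex had a looser first match than the others. HAS2 was closest to PSMD2 (0.90), SLC20A1 (0.88) and RDH11 (0.86), and CD44 to AHI1 (0.86), SNX9 (0.84) and GOLIM4 (0.83). ACAN was closest to AP5M1 (0.85), SCN8A (0.81) and NEIL1 (0.79), and HAS1 to LOC110262126 (0.79), KCNG1 (0.78) and LOC110261106 (0.74).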

How the data were processed

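Raw counts per gene, deposited by the authors as whole numbers for 16 polyA RNA libraries, were used. The kits were RNeasy Micro for RNA and KAPA mRNA HyperPrep for libraries, per the labels' protocols. Per the submitters' processing notes, FastQC 0.11.5, Trimmomatic 0.36, HISAT2 2.1.0, SAMtools 1.3.1, featureCounts and the build Sscrofa11.1 were used; the strand setting is not given in the sources used here. Of 29576 entries, 24 that carried numbers in place of gene names (0.169% of counts) were left out. Coordinates came from RefSeq on Sscrofa11.1.

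edgeR 4.0.16 in R 4.3.3 fitted 4 group means over 16 libraries (filterByExpr, TMM, robust quasi-likelihood F test, 12 residual degrees of freedom), with Benjamini-Hochberg adjustment over 14530 genes. Log2 CPM used a prior count of 2. TMM factors lay below 1 in plastic and above 1 in gel libraries. The results were recomputed with DESeq2 1.42.0, with limma-voom (limma 3.58.1), with RLE size factors, with no filter, with a filter at 1 CPM in 4 libraries, with only the groups compared, with the replicate as a block, and without each library, without the pair of female plastic 4 and male gel 2, and without the 3 replicates male 4, female 1 and female 4. Library totals without TMM factors were added after the data were seen. Plastic and gel libraries of a sex that carry the same number deviated together from their group means (r = 0.13 to 0.49 in 8 pairs), and for 16 of 16 libraries the best match was the own number, so the numbers were taken as pairs. The design text counts 4 replicates of each sex for the 16 libraries but does not state that a number marks the same cells on both surfaces, so the pairing rests on the data. No library was a copy of another: 24 pairs within groups gave 9.93 to 81.9 for chi-square over its degrees of freedom. Female 2 and female 3 were the closest female pair, at 9.93 on plastic and 17.3 on gel. The other female pairs gave 43.5 to 63.7 on plastic and 45.1 to 58.8 on gel. Female 2 and female 3 are the female replicates left in the fit without male 4, female 1 and female 4.

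The members, lists and tests were chosen with earlier results of these data known. The genes named were the 9 members whatever their result, up to 3 genes per list, direction and surface comparison by adjusted p among those called, and the 3 closest patterns per member. Figures were drawn with matplotlib 3.10.9.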

Additional observations from a re-analysis of the deposited data

Results flagged for a closer look

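Each member was checked in each group of 4 libraries, 36 sets of values, for a library whose gap to its nearest neighbour, as a share of the group's range, passed Dixon's 95% critical value, a limit that chance passes in about 1 in 20 groups, and 2 were found. VCAN stood at 259 CPM in female plastic 1, below the 477 to 501 CPM of the other female plastic libraries. VCAN also stood at 512 CPM in male plastic 1, above 449 to 455 CPM in the other male plastic libraries, where it is the closeness of those 3 that makes the gap large. No difference between the sexes in a member's surface change passed the test.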

How the results depend on the processing

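The surface calls of VCAN and TNFAIP6 in each sex, and of HAS3 and HAPLN1 in male cells, were kept in 26 of 26 alternatives. With 5 female members called, 2 (VCAN and TNFAIP6) were called without male 4, female 1 and female 4, which leaves 2 female replicates a surface. Calls over all genes fell as well: in female cells that fit called 1175 higher and 773 lower on plastic of 14714 tested. The main fit called 1841 and 1638 of 14530. Without those 3 replicates HAS3 was at -1.35 (adjusted p = 0.0719), HAPLN1 at -1.10 (0.0516) and HAPLN3 at -0.37 (0.519). HAPLN3 also lost its female call with RLE size factors (adjusted p = 0.0527) and no filter (0.0507), and ran from -0.64 to -0.44 when 1 library was left out. Uncalled changes near 0 changed sign. Leaving out 1 library gave -0.09 to 0.70 for ACAN, -0.75 to 0.01 for HAS2 and -0.11 to 0.09 for CD44 in male cells, and -0.19 to 0.27, -0.68 to 0.02 and -0.01 to 0.13 in female cells. CD44 was 0.10 in male cells without male 4, female 1 and female 4, and -0.01 in female cells without male gel 2 and female plastic 4. Library totals without TMM factors gave -0.16 for ACAN and -0.17 for CD44 in female cells. That scaling called 1141 genes higher and 4808 lower on plastic in male cells (1870 and 1871 with TMM) and 1070 and 4325 in female cells (1841 and 1638 with TMM), and the cause was not tested.

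With the replicate block, 4 members were called in male and 5 in female cells, and no call of a member changed. Of all 14530 tested genes, the block called 2233 higher and 2053 lower in male cells, and 2099 and 1894 in female cells. VCAN was -1.81 and -1.49 with it. For the comparisons between sexes and of the surface changes, 0 of 224 refits of single members in each gave a call, and the sign changed in 18 on gel, 21 on plastic and 26 for the difference. HAS1 was not tested with the filter at 1 CPM. HAS1 had the lowest counts of the members, 4 to 19 per library, which limits its precision.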
